A study of Homo sapiens with 4 samples.

Results

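Kinesins are motor proteins that use ATP to walk along microtubules or to take microtubule ends apart. One set of them builds the spindle, moves chromosomes and completes cell division, and its genes are mostly switched on late in the cell cycle. Another set carries vesicles, mitochondria, receptors and cilium parts, and several of those motors are abundant in neurons, where cargo has to travel the length of an axon. Neuroblastoma cells divide rapidly and come from the sympathetic neuron lineage, so both sets can be read in 1 cell line.

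The kinesin genes were taken as the protein-coding genes whose symbol is KIF, a number and an optional letter. Of 60671 gene rows, 39 met the rule, and they were divided by textbook function into 13 mitotic kinesins, 15 transport kinesins and 11 other kinesins. RNA was measured in SK-N-BE(2), a long-established human line derived from a neuroblastoma in which MYCN is amplified. The control group, shNC, carried a scramble short hairpin RNA, and the other group, shMETTL14, carried a hairpin against METTL14, a subunit of the enzyme that places N6-methyladenosine on RNA. Each group had 2 libraries, and nothing in the labels says whether they came from separate cultures, so the p-values measure the spread between these libraries. Hairpins were delivered by lentivirus in a pLKO vector and carrying cells were selected with puromycin. More than 1 METTL14 hairpin was made, and the labels do not say which of them these libraries carried.

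Depth was even, at 18925786 to 19886214 counts in genes per library, and METTL14 itself had 753 and 754 counts in shNC against 303 and 321 in shMETTL14, or 41.7% of control (log2 fold change −1.26, SE 0.0832, edgeR adjusted p = 3.6e-11). The line's identity was checked with markers. All 10 noradrenergic neuroblastoma markers were expressed highly enough to test, with a summed level of 4993 to 5272 CPM (counts scaled to the same library size, after TMM normalization) per library. The 7 Schwann and glial markers summed to 3.83 to 5.97 CPM, with SOX10 and CDH19 at 0 in all 4 libraries, and the 10 blood and endothelial markers to 2.35 to 4.21 CPM, with HBA1 at 0. The 10 mesenchymal markers summed to 2647 to 2727 CPM, of which VIM, not called, made up 1900 to 2001. Of the 9 mesenchymal markers tested 6 were called lower, among them COL3A1 (−0.78) and SNAI2 (−0.56), and 2 higher, FN1 (0.46) and COL1A2 (1.83, on 2 to 18 counts). Of the noradrenergic markers 7 were called lower and 2 higher. The share called was 90% of the noradrenergic and 88.9% of the tested mesenchymal markers. Over all genes tested it was 52.5%, with 25.3% lower and 27.2% higher. The part of these markers in the kinesin values was not tested.

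Many genes moved in this comparison. edgeR's quasi-likelihood test called 52.5% of the 16309 genes tested at an adjusted p under 0.05, with 27.2% higher and 25.3% lower in shMETTL14. Of the 39 kinesin genes, 35 passed the filter on low counts. Among those 35, 25 were called (71.4%), of which 9 were higher and 16 lower, and DESeq2, which called 36.9% of the same 16309 genes, lost KIF13A, KIF16B, KIF23, KIF25 and KIF3A. The median log2 fold change of the 35 was −0.16 against −0.00095 over all genes tested. The shNC and shMETTL14 libraries did not overlap for 31 of the 35, where the share over all genes tested was 75.5%. The other 4 genes were close to silent: KIF2B had no count in any library, KIF21B had 0 and 0 counts in shNC and 1 and 2 in shMETTL14, KIF12 had 0 and 2 against 0 and 4, and KIF19 had 1 and 0 against 0 and 0. With 2 libraries a group, an exact two-sided permutation test of any 1 gene cannot go below p = 0.333, so each call rests on the variance that edgeR shares across genes.

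**Figure D1:**
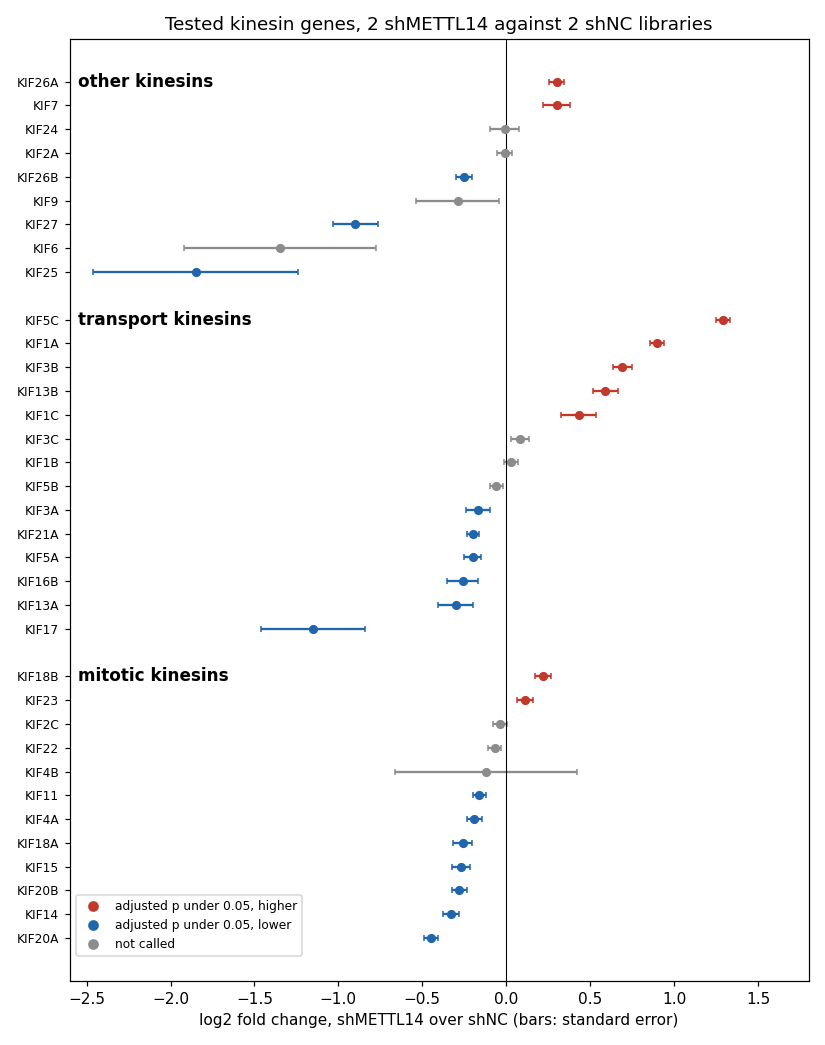
Log2 fold change of shMETTL14 over shNC (horizontal axis) for the 35 tested kinesin genes, sorted within the mitotic, transport and other groups. Points are edgeR estimates, bars are standard errors, and colours mark genes called at an adjusted p under 0.05. The mitotic genes lie between −0.45 and 0.22, and KIF5C at 1.29 and KIF1A at 0.90 lie farthest to the right.

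The mitotic kinesins and the transport kinesins also differ in the DNA before their start sites. Genes of the late cell cycle often carry a cell cycle genes homology region (CHR) downstream of CCAAT boxes. The CHR word was searched as TTTGAA and, with a C replacing a T, as TTCGAA, and the CCAAT box by its letters. RefSeq promoter windows on GRCh38.p14, from 250 bases before to 50 after each start, were at hand for 33 of the 39 genes. On either strand, a CHR word was found in 10 of 13 mitotic kinesins (76.9%), in 1 of 12 transport kinesins (8.33%, KIF5B) and in 1 of 8 other kinesins (KIF24), against 15.6% of 10404 tested protein-coding genes and 16.4% of 35116 windows. CCAAT was found in 10 mitotic (76.9%), 4 transport (33.3%) and 3 other kinesins (37.5%), against 43.6% of tested protein-coding genes and 34.6% of windows. Of the mitotic kinesins, 9 held both words. GGCGGGAA, an E2F-type word, was in no kinesin window of the 33 and in 6.42% of tested protein-coding genes.

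The 90 bases before the start are printed as examples for 7 mitotic kinesins and 3 transport kinesins. The transport kinesins are those with the smallest adjusted p among those that rose. KIF20A is there as the mitotic kinesin with the lowest log2 fold change, and the other 6 were chosen for a CHR word within these bases. The printed stretches therefore cannot show how often the groups differ, which rests on the counts above. Each is written 5′ to 3′ on the gene's strand, and capitals mark a CHR word or a CCAAT box, read on either strand. By construction these words can share no more than 2 bases with each other.
KIF20A, chr5:138179022-138179111, plus strand: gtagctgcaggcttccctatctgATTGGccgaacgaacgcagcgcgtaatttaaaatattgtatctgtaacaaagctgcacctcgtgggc
KIF11, chr10:92593040-92593129, plus strand: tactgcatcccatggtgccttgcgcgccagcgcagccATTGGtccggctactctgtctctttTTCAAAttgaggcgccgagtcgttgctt
KIF15, chr3:44761704-44761793, plus strand: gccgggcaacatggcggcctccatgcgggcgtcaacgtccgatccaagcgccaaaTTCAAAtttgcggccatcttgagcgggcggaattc
KIF4A, chrX:70290014-70290103, plus strand: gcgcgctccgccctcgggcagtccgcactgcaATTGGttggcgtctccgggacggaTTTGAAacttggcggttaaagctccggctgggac
KIF18A, chr11:28108157-28108246, minus strand: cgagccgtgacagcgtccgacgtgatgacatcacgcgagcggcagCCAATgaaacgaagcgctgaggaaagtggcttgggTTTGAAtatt
KIF22, chr16:29790661-29790750, plus strand: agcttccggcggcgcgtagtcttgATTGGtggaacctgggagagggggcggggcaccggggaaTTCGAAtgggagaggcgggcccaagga
KIF23, chr15:69414259-69414348, plus strand: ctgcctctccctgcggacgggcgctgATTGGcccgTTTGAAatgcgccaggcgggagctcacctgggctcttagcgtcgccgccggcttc
KIF5C, chr2:148875137-148875226, plus strand: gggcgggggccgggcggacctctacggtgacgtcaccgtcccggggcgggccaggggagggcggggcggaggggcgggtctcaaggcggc
KIF1A, chr2:240821040-240821129, minus strand: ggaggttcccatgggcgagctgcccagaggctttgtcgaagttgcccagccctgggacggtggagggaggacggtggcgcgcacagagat
KIF3B, chr20:32277561-32277650, plus strand: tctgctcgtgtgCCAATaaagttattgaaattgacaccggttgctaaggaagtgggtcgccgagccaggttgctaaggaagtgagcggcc

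In KIF11, KIF4A, KIF18A, KIF22 and KIF23 the CCAAT box lies upstream of the CHR word. The CHR word begins 28 bases before the start in KIF11, 34 in KIF4A, 10 in KIF18A, 27 in KIF22 and 55 in KIF23. KIF15 holds the CHR word without a CCAAT box, and KIF20A holds CCAAT boxes without the CHR word. KIF5C and KIF1A hold neither word in these 90 bases. A match is a run of letters and does not show that a factor binds there.

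The CHR word was set beside the calls, and its part in them was not tested. Of the 10 mitotic kinesins with it, 6 fell (KIF11, KIF14, KIF15, KIF18A, KIF20B and KIF4A), 2 were called higher (KIF18B and KIF23) and 2 were not called (KIF22 and KIF4B). The call of KIF23 was lost under every alternative tried except the replicate block. Of the 3 without the word, KIF20A fell, KIF2C was not called and KIF2B was not tested. Over all genes tested 25.3% were called lower and 27.2% higher.

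Mitotic kinesins were lower in shMETTL14 more often than higher. Of the 12 tested, 7 fell, 2 were called higher and 3 were not called, with a median log2 fold change of −0.17 and a range from −0.45 to 0.22. The libraries of both groups did not overlap for 11 of the 12, where the share over all genes tested was 75.5%. Over all genes tested 25.3% were called lower and 27.2% higher. The changes were small beside many others in these libraries, since the median size among all called genes was 0.44 on the log2 scale.

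The motors of cytokinesis, the final split of the daughter cells, went both ways. KIF20A, which brings the chromosomal passenger complex to the central spindle, had 260 and 268 CPM in shNC and 191 and 194 in shMETTL14. Both shMETTL14 libraries were below both shNC libraries, and the level was 73.0% of control (log2 fold change −0.45, SE 0.0403, edgeR adjusted p = 4.1e-09). KIF14, which recruits citron kinase to the midbody, went from 114 and 119 CPM to 90.9 and 94.0 (−0.33, SE 0.047, edgeR adjusted p = 3.7e-06). KIF20B, which acts late in abscission, went from 125 and 129 CPM to 108 and 102 (−0.28, SE 0.0461, edgeR adjusted p = 2.5e-05). These 3 genes fell with no overlap between the groups. KIF23, the motor subunit of centralspindlin, had 91.2 and 91.5 CPM in shNC and 98.1 and 99.2 in shMETTL14. It was called higher by a narrow margin (0.11, SE 0.0461, edgeR adjusted p = 0.0477), and the call was lost under every alternative tried except the replicate block, with adjusted p between 0.0573 and 0.45. KIF4A, a chromokinesin that sets the length of the central spindle, fell from 121 and 125 CPM to 106 and 110 (−0.19, SE 0.0456, edgeR adjusted p = 0.00167).

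The motors that keep the spindle bipolar both fell. KIF11, which slides antiparallel microtubules apart to separate the spindle poles, went from 222 and 228 CPM to 200 and 202 (−0.16, SE 0.0403, edgeR adjusted p = 0.00167). KIF15, which can keep a spindle bipolar beside KIF11, went from 68.6 and 68.5 CPM to 57.4 and 56.2 (−0.27, SE 0.0538, edgeR adjusted p = 2.1e-04). In neither gene did the groups overlap.

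The kinesin-8 pair moved in opposite directions. KIF18A, which damps chromosome movement at metaphase, fell from 62.2 and 61.7 CPM to 51.8 and 52.0 (−0.26, SE 0.0562, edgeR adjusted p = 6.1e-04). KIF18B, which shortens astral microtubules, rose from 84.4 and 80.8 CPM to 96.8 and 94.9 (0.22, SE 0.0481, edgeR adjusted p = 7.2e-04). Summed per kilobase of exon, the pair stood at 102% of control, and the share of KIF18B rose from 57.2 ± 0.633% to 64.9 ± 0.389% (SD, n = 2 libraries).

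Not called among the mitotic kinesins were KIF2C, which removes tubulin at kinetochores, at −0.04 (95% interval −0.13 to 0.04), KIF22, a chromokinesin that pushes chromosome arms, at −0.07 (−0.15 to 0.01), and KIF4B at −0.12 (−1.18 to 0.95). KIF22 was called lower with upper quartile scaling (−0.14, edgeR adjusted p = 0.00739) and without TMM scaling (−0.11, edgeR adjusted p = 0.0224), and KIF2C with upper quartile scaling (−0.11, edgeR adjusted p = 0.0279), which makes 9 and 8 mitotic kinesins lower under those scalings. KIF4B had 0.306 to 0.779 CPM. Its transcript is 94.8% identical to KIF4A over 4378 bases, so its reads and those of KIF4A are uncertain.

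Markers of the cell cycle moved with these genes. Of 20 G2/M reference genes 14 fell and 3 rose (85.0% called, against 52.5% over all genes tested), with a median of −0.17, and their summed level was 5409 and 5447 CPM in shNC and 4303 and 4217 in shMETTL14. TOP2A, which untangles DNA before division, fell by 1.24 on the log2 scale (SE 0.037, edgeR adjusted p = 1.1e-16), and CENPF, a kinetochore protein, fell by 0.73 (SE 0.0363, edgeR adjusted p = 3.6e-13). In CPM, TOP2A went from 972 and 985 to 411 and 417, and CENPF from 920 and 921 to 558 and 551. Most of the drop in the summed level came from this pair, so the sum does not give the size of the fall in the other genes. Against that direction, the transcription factors MYBL2 (0.54) and FOXM1 (0.11), which switch on late cell cycle genes, were called higher. The part of these markers in the kinesin values was not tested, and in bulk RNA fewer cells in G2 and mitosis cannot be told apart from less RNA per such cell.

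Transport kinesins did not move as a group. Of the 14 tested, 5 rose, 6 fell and 3 were not called, the median log2 fold change was −0.01, and the range ran from −1.15 to 1.29. The share called was 78.6%, against 52.5% over all genes tested, of which 27.2% were higher and 25.3% lower. The rises were larger than the falls except for KIF17. Of the 5 that rose, KIF1A, KIF1C and KIF13B belong to kinesin-3, KIF5C to kinesin-1 and KIF3B to kinesin-2.

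**Figure D2:**
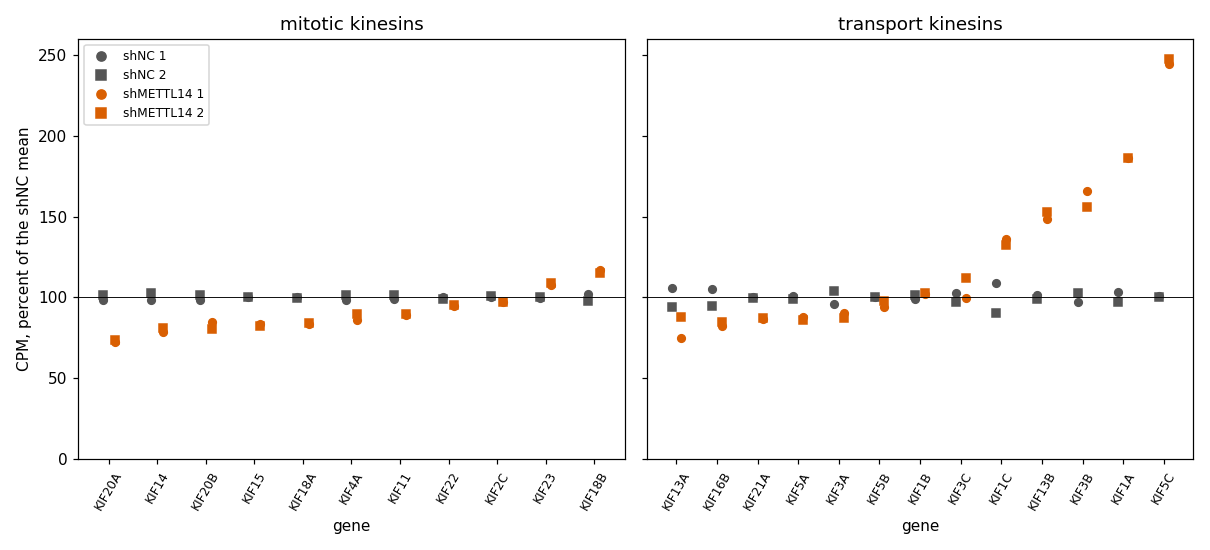
CPM of each library as a percent of the shNC mean (vertical axis), for mitotic and transport kinesins with a mean of at least 10 CPM in shNC, ordered by the shMETTL14 mean. Circles are replicate 1 and squares replicate 2, grey is shNC and orange is shMETTL14. Among mitotic kinesins KIF20A is lowest at 73.0% of control, and among transport kinesins KIF5C reaches 245% and KIF1A 186%.

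Kinesin-1, the conventional kinesin, has 3 heavy chains, of which KIF5B is made in most cells and KIF5A and KIF5C mainly in neurons. KIF5C, on chromosome 2, had 2275 and 2157 counts in shNC and 5402 and 5394 in shMETTL14, or 114 and 113 CPM against 276 and 280. The groups were far apart, at 245% of control (log2 fold change 1.29, SE 0.0415, edgeR adjusted p = 3.1e-16), and only 1.61% of the genes tested had a higher fold change. KIF5A, the other neuronal heavy chain, fell from 78.0 and 76.3 CPM to 67.6 and 66.5 (−0.20, SE 0.0508, edgeR adjusted p = 0.00196). KIF5B had 353 and 353 CPM in shNC and 331 and 345 in shMETTL14 and was not called (−0.06, 95% interval −0.14 to 0.01, edgeR adjusted p = 0.187), though it was called lower without TMM scaling (−0.11) and with upper quartile scaling (−0.13). Per kilobase of exon, KIF5C made up 14.5 ± 0.0913% of the kinesin-1 level in shNC and 30.7 ± 0.225% in shMETTL14, while KIF5B went from 70.9 ± 0.269% to 58.4 ± 0.553% and KIF5A from 14.6 ± 0.178% to 10.9 ± 0.328% (SD, n = 2). The summed kinesin-1 level stood at 116% of control.

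The KIF1 motors of the kinesin-3 family carry synaptic vesicle precursors, dense-core vesicles and mitochondria. KIF1A, the neuronal member, had 171 and 161 CPM in shNC and 309 and 309 in shMETTL14 (0.90, SE 0.0417, edgeR adjusted p = 1.3e-13). KIF1C, which moves secretory vesicles in many cell types, had 14.7 and 12.2 CPM against 18.4 and 17.9 (0.43, SE 0.105, edgeR adjusted p = 0.00165). KIF1B lies in the part of chromosome 1 that is often lost in neuroblastoma. It had 160 and 164 CPM against 165 and 166 and was not called (0.03, 95% interval −0.05 to 0.12), with a sign that turned under upper quartile scaling (−0.03) and without TMM scaling (−0.01). KIF1A took 48.2 ± 0.941% of the summed KIF1 level per kilobase in shNC and 61.7 ± 0.0197% in shMETTL14.

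The kinesin-3 motors of the endosome split. KIF13B rose from 26.6 and 26.0 CPM to 39.1 and 40.2 (0.59, SE 0.0743, edgeR adjusted p = 7.1e-07). Its paralog KIF13A, which moves recycling endosomes, was called lower, at 19.6 and 17.4 CPM against 13.8 and 16.2 (−0.30, SE 0.104, edgeR adjusted p = 0.0199). KIF16B, a motor of early endosomes, was called lower, at 22.3 and 20.1 CPM against 17.4 and 18.0 (−0.26, SE 0.0927, edgeR adjusted p = 0.0213). Both lower calls were lost with DESeq2 (adjusted p = 0.119 and 0.132). They were also lost without shNC replicate 1, at −0.22 for KIF13A and −0.19 for KIF16B, and without shMETTL14 replicate 1, at −0.19 and −0.23. KIF16B was also lost with no filter on low counts (−0.25, edgeR adjusted p = 0.0535). The share of KIF13B in the KIF13 level went from 58.8 ± 1.61% to 72.6 ± 1.84%.

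Kinesin-2 motors work as pairs of KIF3A with KIF3B or KIF3C, and carry cilium parts and axonal cargo. KIF3B rose from 46.7 and 49.4 CPM to 79.6 and 74.9 (0.69, SE 0.0571, edgeR adjusted p = 1.6e-09). KIF3A, the shared partner, had 38.9 and 42.3 CPM against 36.6 and 35.4 (−0.17, SE 0.0714, edgeR adjusted p = 0.0475). Its call was lost with DESeq2, with no filter on low counts, and when shNC replicate 2 (−0.11), shMETTL14 replicate 1 (−0.19) or shMETTL14 replicate 2 (−0.14) was left out. KIF3C, the neuronal partner, had 101 and 95.5 CPM against 97.5 and 110, with overlapping groups (0.08, 95% interval −0.03 to 0.18), and was called higher only without shMETTL14 replicate 1 (0.17). KIF3B went from 34.0 ± 1.75% to 43.9 ± 3.11% of the summed KIF3B and KIF3C level per kilobase.

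KIF17, a dendritic motor known for carrying a glutamate receptor subunit, was scarce. It had 59 and 44 counts in shNC and 27 and 19 in shMETTL14 (−1.15, SE 0.309, edgeR adjusted p = 0.00352), a ratio of summed counts of 0.45 with an exact 95% interval of 0.31 to 0.642 that covers counting error only. Without shNC replicate 1 the call was lost (−0.96, adjusted p = 0.058). KIF21A, which limits microtubule growth at the cell edge, was one of the most abundant kinesins and fell from 513 and 511 CPM to 442 and 447 (−0.20, SE 0.0371, edgeR adjusted p = 8.5e-05).

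**Figure D3:**
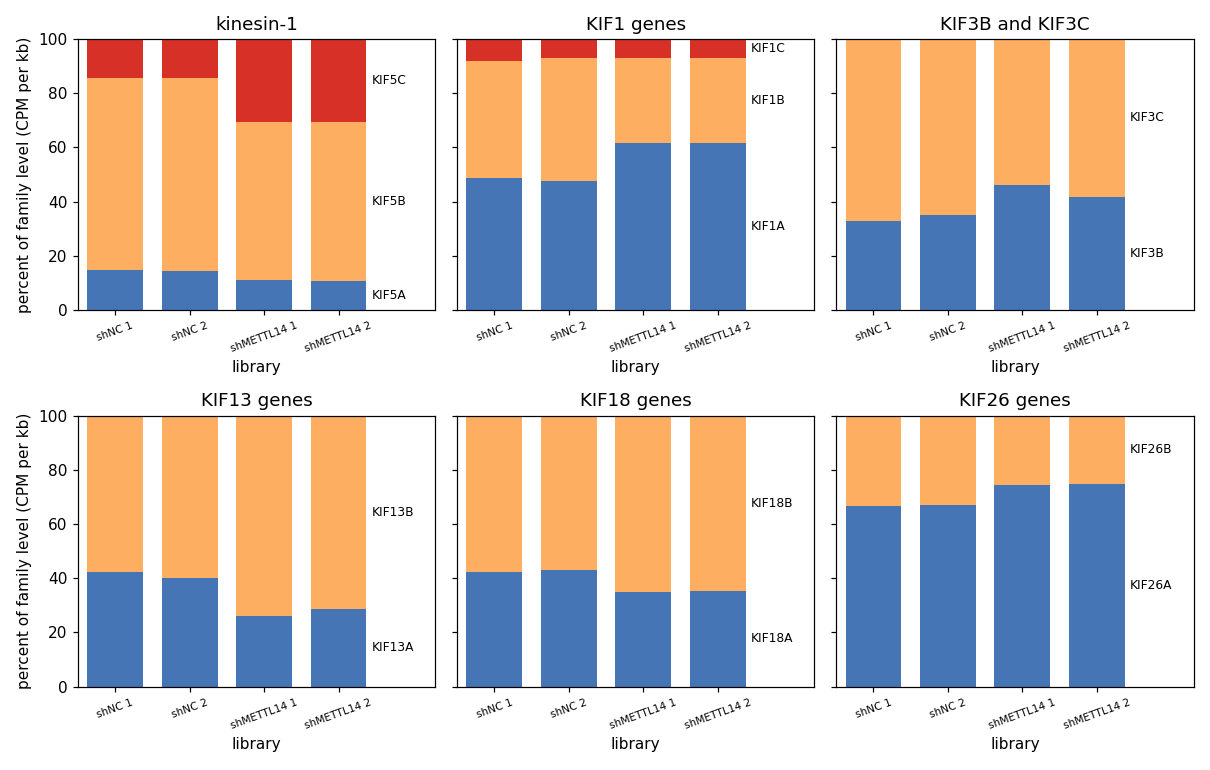
Share of each gene in the summed level of its family (vertical axis, percent of CPM per kilobase of exon), for each of the 4 libraries (horizontal axis). KIF5C goes from 14.5% to 30.7% of kinesin-1, KIF1A from 48.2% to 61.7% of the KIF1 genes and KIF13B from 58.8% to 72.6% of the KIF13 genes, with both libraries of a group close together.

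The 6 transport kinesins listed as enriched in neurons did not share a direction. KIF5C and KIF1A rose, KIF5A and KIF17 fell, KIF3C was not called and KIF21B was too low to test. Their median was 0.08, and their summed level went from 467 and 448 CPM to 751 and 766.

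Among the 11 other kinesins, 9 were tested, of which 2 rose, 3 were called lower and 4 were not called. That share of 55.6% called was near the 52.5% over all genes tested. KIF26A and KIF26B lack the usual motor activity and act in signalling. KIF26A rose from 124 and 116 CPM to 145 and 150 (0.30, SE 0.0459, edgeR adjusted p = 1.2e-05). KIF26B fell from 133 and 121 CPM to 106 and 108 (−0.25, SE 0.0484, edgeR adjusted p = 1.8e-04). The share of KIF26A per kilobase rose from 66.9 ± 0.312% to 74.6 ± 0.159%. KIF2A, a depolymerase that prunes axon branches, had 121 and 123 CPM against 122 and 120 (−0.01, 95% interval −0.10 to 0.08), and its sign turned with no filter on low counts. It shares 428 exon bases (8.97%) with IPO11 on the same strand.

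Of the 6 kinesins of cilia and hedgehog signalling, 5 were tested. KIF7, which acts at the cilium tip in the hedgehog pathway, rose from 22.8 and 24.6 CPM to 29.3 and 28.9 (0.30, SE 0.0813, edgeR adjusted p = 0.004). KIF27, its close relative, fell from 247 and 248 counts to 116 and 148 (−0.90, SE 0.135, edgeR adjusted p = 8.2e-06), a ratio of 0.537 (exact 95% interval 0.461 to 0.625). KIF24, which restrains cilium growth, was at −0.01, KIF9, a motor of motile cilia, at −0.29, and KIF6 at −1.35 on 26 and 10 summed counts (edgeR adjusted p = 0.0522). None of these last 3 was called in the main fit. KIF6 was called lower with upper quartile scaling (−1.41, edgeR adjusted p = 0.0419) and without TMM scaling (−1.39, edgeR adjusted p = 0.0453). KIF25, outside the cilium list, was called lower on 14 and 12 counts against 3 and 4 (−1.85, SE 0.611, edgeR adjusted p = 0.0148). The call was lost with DESeq2 and without any 1 of the 4 libraries, where values ran from −2.06 to −1.64.

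Levels between genes were compared as CPM per kilobase of exon. In shNC the order was led by KIF20A at 66.6 ± 1.41, KIF5B at 60.1 ± 0.0453 and KIF21A at 50.6 ± 0.173, followed by KIF11 at 46.3 ± 0.909, KIF22 at 45.6 ± 0.471 and KIF2C at 44.5 ± 0.138 (SD, n = 2). KIF11 and KIF22 differed by less than the SD of KIF11. In shMETTL14 KIF5B led at 57.5 ± 1.61 and KIF20A stood at 48.6 ± 0.619. KIF5C moved from 12.3 ± 0.115, under KIF4A at 27.2 ± 0.714, to 30.2 ± 0.336, over KIF4A at 23.9 ± 0.669.

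The summed kinesin level was close in both groups. All 39 genes together gave 579 ± 0.865 CPM per kilobase in shNC and 565 ± 4.69 in shMETTL14, or 97.7% of control. The mitotic genes went from 323 ± 3.02 to 286 ± 1.15 (88.6%) and the transport genes from 192 ± 1.27 to 214 ± 3.03 (111%). The mitotic share went from 55.8 ± 0.439% to 50.6 ± 0.216% and the transport share from 33.3 ± 0.269% to 37.8 ± 0.222%. The order of the groups in shMETTL14 depends on the length used: per kilobase of the longest coding region the mitotic share went from 48.4 ± 0.361% to 42.6 ± 0.198% and the transport share from 41.2 ± 0.241% to 47.3 ± 0.235%. The 2 libraries of each group lay within 1 percentage point of each other in both shares.

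Motors of the same superfamily with other symbols also divided. CENPE, the kinetochore kinesin that brings chromosomes to the metaphase plate, had 272 and 286 CPM in shNC and 185 and 184 in shMETTL14 (−0.60, SE 0.0413, edgeR adjusted p = 8.3e-11). The lowest of the 12 tested mitotic KIF genes, KIF20A, was at −0.45, and the difference between these genes was not tested. KIFC1, a minus-end motor that focuses spindle poles, was not called (0.06). KIFC2, a minus-end motor of neurons, rose from 10.6 and 11.5 CPM to 16.7 and 17.7 (0.63, SE 0.106, edgeR adjusted p = 3.1e-05).

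Light chains and adaptors link kinesins to cargo, and of the 15 tested of 16 listed, 9 rose and 4 fell, with a median of 0.14 and 86.7% called, against 52.5% over all genes tested. MAPK8IP1, a scaffold that ties JNK signalling to kinesin-1, had 39.0 and 37.1 CPM in shNC and 75.4 and 79.4 in shMETTL14 (1.02, SE 0.0592, edgeR adjusted p = 4.4e-12). KLC2, a kinesin-1 light chain, rose from 38.2 and 35.9 CPM to 74.6 and 65.5 (0.92, SE 0.0677, edgeR adjusted p = 2.4e-10). KLC1, the main neuronal light chain, rose by 0.40 and KIFAP3, the cargo subunit of kinesin-2, by 0.37. SPAG9 (−0.31), another JNK scaffold, and TRAK1 (−0.26), which links mitochondria to kinesin-1, fell.

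Dynein walks the other way along the microtubule. Of 23 dynein and dynactin genes 10 rose and 5 fell (65.2% called, median 0.12), against 27.2% higher, 25.3% lower and 52.5% called over all genes tested. DYNC1I1, the neuronal dynein intermediate chain, had 67 and 59 counts in shNC and 378 and 298 in shMETTL14 (2.43, SE 0.15, edgeR adjusted p = 1.3e-11). ACTR1A, the main subunit of the dynactin filament, rose by 0.64, and the dynactin subunits DCTN4 (−0.52), DCTN5 (−0.48) and DCTN1 (−0.12) fell. DCTN2 (0.21) and DCTN6 (0.39), named here for balance, rose, so the DCTN genes did not share a direction. DYNC1H1, the motor heavy chain, was not called (0.03).

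Among 16 spindle partners of the mitotic kinesins none was called higher and 7 fell, a share of 43.8% called, with a median of −0.12. Over all genes tested 52.5% were called and 25.3% were lower. The 16 include PRC1 and NUSAP1, neither of them called, whose counts are set aside below. The share called among the spindle partners is therefore not read as under that background. HMMR, a spindle assembly factor, fell by 0.72 (SE 0.0426, edgeR adjusted p = 6.8e-12), NUMA1, which focuses spindle poles, by 0.36, CKAP5, a microtubule polymerase, by 0.31, and CEP55, which recruits the abscission machinery, by 0.37. PRC1, which bundles the central spindle, and NUSAP1, singled out after their values were seen, had only 10 to 21 counts per library. How the counting treated overlapping genes is not given in the sources used here, so these counts are not read as the levels of PRC1 and NUSAP1.

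**Figure D4:**
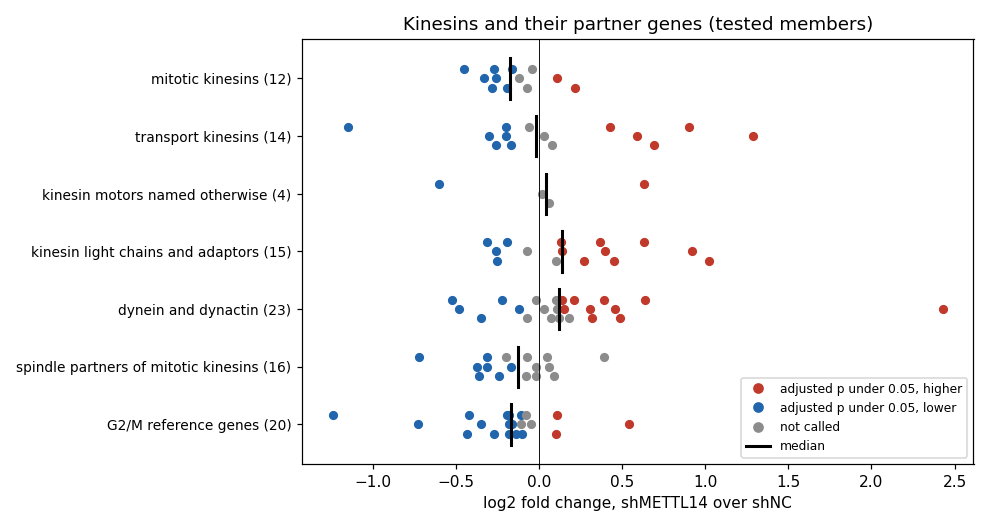
Log2 fold change of shMETTL14 over shNC (horizontal axis) for the tested genes of 7 lists, 1 point a gene, with the number tested in brackets and a black bar at the median. Spindle partners and G2/M genes have medians of −0.12 and −0.17, like the −0.17 of mitotic kinesins, and DYNC1I1 at 2.43 is the rightmost point.

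m6A is placed mainly in the context of the 5-letter word GGACT and its variants, so the word was counted in the annotated transcript with the longest coding region of each gene. The median was 0.576 per kilobase in the 12 tested mitotic kinesins, 1.07 in the 14 tested transport kinesins and 0.945 in 12800 tested protein-coding genes. KIF20A held 1 such word (0.312 per kilobase) and KIF5C held 9 (1.3 per kilobase). Other genes went the other way: KIF23, called higher, had 0.269 per kilobase and KIF25, called lower, had 1.99. Both of these calls were lost with DESeq2, and the part of the word in the values was not tested. Among the 35 tested kinesins the median was 1.14 in those called higher, 0.642 in those called lower and 1.28 in those not called. Over these 35 genes, which share the same 4 libraries, density and log2 fold change had a Spearman rho of 0.24 and a Pearson r of 0.03, given as a description. A word in a transcript does not show that it was methylated.

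Reads of some kinesins can be shared with neighbours, because the strand setting of the counting is not given in the sources used here. Exons of 16 of the 39 genes overlap those of any annotated gene and 7 overlap a protein-coding one. KIF20A shares 132 exon bases (3.34%) with BRD8, whose log2 fold change was −0.51, and 68 (1.72%) with CDC23. KIF7 shares 589 (11.8%) with TICRR, and KIF18A shares 61 (1.31%) with METTL15. The part of these overlaps in the values was not tested.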

How the data were processed

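RNA of 2 shNC and 2 shMETTL14 SK-N-BE(2) libraries was sequenced as paired ends of 150 bases. The values are whole-number counts for each Ensembl gene, deposited without normalization in a single table. The submitters' processing notes name HISAT2 2.1.0, StringTie 1.3.6, HTSeq 0.13.5, edgeR and GRCh38, and roles, annotation release and strand setting are not given in the sources used here. Lines naming no gene (19.1% to 19.9% of counts) were left out. The shNC libraries kept 19608332 and 18925786 counts, and the shMETTL14 libraries 19886214 and 19603794. Intervals on summed counts cover counting error only.

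Counts were tested with edgeR 4.0.16 in R 4.3.3 (quasi-likelihood F-test, TMM, filterByExpr with a minimum count of 10 and total of 15, group as the design). P-values were adjusted by Benjamini-Hochberg over 16309 genes, and genes were called under 0.05. SE was derived from the F statistic. CPM are TMM-scaled. Exon lengths and overlaps came from GENCODE on GRCh38, and promoters from RefSeq (GRCh38.p14). KIF28P, a pseudogene, was left out. Alternatives were other scalings, filters, DESeq2 1.42.0, a replicate block, leaving out each library, and coding length. All KIF genes could be named, and of each other list the smallest adjusted p in each direction and its defining members. DCTN2 and DCTN6 were added for balance. The kinesin rule and all lists were chosen with earlier results of these data known. Replicates differed by more than sampling noise (chi-square per gene 2.8 and 2.3, against 34.1 to 35.2 between groups).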

Additional observations from a re-analysis of the deposited data

How the results depend on the processing

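METTL14 stayed between −1.33 and −1.21 under every alternative tried, and the number of mitotic kinesins called lower was 7 without any 1 library, 9 with upper quartile scaling and 8 without TMM. The number of mitotic kinesins called higher was 1 with RLE, upper quartile or no TMM scaling, with at least 10 counts in every library, with no filter and with DESeq2, and 1 without any 1 library, since KIF23 was lost. DESeq2 called 6022 genes (36.9%), with 3 transport kinesins and 2 adaptors lower and 1 G2/M gene higher. Leaving out 1 library gave 3 to 5 transport kinesins lower, 2 to 3 adaptors lower and 1 to 2 G2/M genes higher, and 1 G2/M gene was higher with upper quartile scaling, without TMM and with at least 10 counts. The mitotic median was −0.24 with upper quartile scaling, −0.22 without TMM, and −0.22 to −0.15 without 1 library. The transport median was −0.08, −0.06, 0.05 with no filter, and 0.08 for neuron-enriched motors alone. Those 2 scalings moved the median gene by −0.068 and −0.045, and upper quartile scaling took the share of higher calls from 51.8% to 41.7%. Signs turned for KIF1B (−0.03 and −0.01 with those scalings) and KIF2A (6.6e-05 with no filter), and without 1 library for KIF24 (−0.06 to 0.04), KIF2A (−0.03 to 0.01), KIF3C (−0.00013 to 0.17) and KIF4B (−0.92 to 0.41). With coding length the mitotic share was 48.4% and 42.6%, the transport share 41.2% and 47.3% (above the mitotic one in shMETTL14), that of KIF5C 21.2% and 41.1%, and that of KIF1A 61.5% in shMETTL14. The cause of these shifts was not tested.

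Deviations of same-numbered libraries correlated at 0.00483 over the genes tested. With 2 libraries a group, that value cannot exclude a pairing by replicate number. The fit with the replicate block called 8926 genes against 8561, and changed no call of a kinesin.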
